A study of Mus musculus with 36 samples.

Results

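Thapsigargin was added to halofuginone in mouse embryonic fibroblasts (MEF) that lack PERK, and the RNA of these cells is described here against that of the same cells on halofuginone alone. The labels put 6 of the 36 RNA-seq libraries of the series in this comparison: 3 of genotype PERK -/- with treatment Halofuginone + Thapsigargin and 3 of genotype PERK -/- with treatment Halofuginone. Other groups of 3 libraries each set the response in context: PERK -/- cells on DMSO (the vehicle), on Thapsigargin, on BtdCPU and on BtdCPU + Thapsigargin, and WT cells on Halofuginone and on Halofuginone + Thapsigargin. All were labelled as the cell line MEF. The dose and the hours of each drug, and the way the PERK -/- cells were derived, are not given in the sources used here. Nothing says that replicates 1 to 3 came from separate cultures, so each p-value measures the spread between these libraries, which may be technical.

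As background, unfolded protein in the endoplasmic reticulum (ER) is read by 3 sensors: IRE1, which splices Xbp1 mRNA, ATF6, which is cut in the Golgi to a transcription factor, and PERK, a kinase of the translation factor eIF2-alpha. Thapsigargin blocks SERCA, the pump that fills the ER with calcium, and so activates all of these sensors. Halofuginone blocks prolyl-tRNA synthetase and activates GCN2, another eIF2-alpha kinase, while BtdCPU acts through the kinase HRI. Phosphorylated eIF2-alpha raises translation of ATF4, which turns on genes for amino acid supply and stress, a programme called the integrated stress response (ISR). In PERK -/- cells on halofuginone the ISR can therefore run while the PERK arm is missing, and the comparison asks what ER stress adds to it.

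The 6 libraries held 35800548 to 36311344 counts. Eif2ak3, the gene of PERK, still gave reads in PERK -/- cells, at 10.1, 7.66 and 10.1 CPM (counts scaled to the library total) on halofuginone and 32.7, 28.1 and 35.4 CPM with thapsigargin, against 39.2 ± 14.3 (SD, n = 3) CPM and 102 ± 9.43 (SD, n = 3) CPM in WT cells. Which part of the gene was deleted is not given, so RNA that is left after the deletion cannot be told apart from intact mRNA in gene totals. Of 10 fibroblast markers, 9 were above 10 CPM in both groups and none was called, whereas markers of macrophages, endothelium, epithelium and muscle summed to at most 6.04 CPM per library. Of 6 neural markers, Nes, Tubb3 and Map2 were above 10 CPM and Sox2 and Sox10 at 0. Their sum was 199 to 225 CPM on halofuginone and 145 to 164 CPM with both drugs, and Nes was called lower (log2 difference -0.96, adjusted p = 0.000303). Their part in the results below was not tested. The PERK -/- and WT cells also differed in 18 genes that had at most 3 counts in every PERK -/- library on DMSO, Thapsigargin, Halofuginone or BtdCPU and over 5 CPM in every WT library, among them the Y-linked Eif2s3y and Uty. A difference between genotypes cannot be told apart from a difference between these lines.

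Thapsigargin changed the RNA of cells already on halofuginone in both directions. Of 16065 genes tested in edgeR's quasi-likelihood model, 1033 (6.43%) were called at an adjusted p below 0.05. The higher calls numbered 526 (3.27%) and the lower calls 507 (3.16%), and 168 of the former and 140 of the latter were beyond 2-fold. With the replicate number as a block in the fit, 1966 genes were called, among them all 1033. The gene groups below were read against the shares without the block. The ER chaperone and sterol synthesis lists had the largest shares of higher calls, the immediate early list the largest share of lower calls, and the list of ISR regulators had 1 call.

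The ER folding machinery rose almost as a whole. Of 20 ER chaperones and folding enzymes tested, 18 were higher and 0 lower, with a median log2 difference of 1.60 against 0 over all genes tested. Sdf2l1, a cofactor of the ER Hsp70 system, stood at 10.5, 10.03 and 15.7 CPM on halofuginone and at 166, 169.8 and 149.9 CPM with thapsigargin. The lowest treated library was above the highest library without it, and the log2 difference was 3.74 (SE 0.29, adjusted p = 4.37e-11). Creld2, an ER protein with disulfide isomerase activity, went from 63.5, 62.7 and 76.9 to 481, 489.7 and 483 CPM, a log2 difference of 2.84 (SE 0.15, adjusted p = 1.11e-14). Manf, a secreted ER stress protein, was at 165, 181 and 198 CPM and then at 1125, 1190.0 and 985 CPM, a log2 difference of 2.60 (SE 0.14, adjusted p = 1.11e-14). For both genes the groups again did not overlap, which was a condition for naming the 10 largest rises. Hspa5 encodes BiP, the master Hsp70 chaperone of the ER. Its level was 2671, 2688 and 3019 CPM on halofuginone and 14038, 15730.2 and 12760.1 CPM with thapsigargin, a log2 difference of 2.34 (SE 0.15, adjusted p = 4.59e-13). The Hspa5 gene model overlaps that of Rabepk, and whether the counting used strand is not given.

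Several of these genes share a short promoter sequence, shown here because it is a known element of ER chaperone genes. The ER stress response element (ERSE), which reads CCAAT, any 9 bases and CCACG, is known as a site of NF-Y together with ATF6, and its shorter relative ERSE-II, which reads ATTGG, any 1 base and CCACG, holds the same CCACG. RefSeq promoters (build GRCm38.p6), running from 250 bases before to 50 after each start site, were searched on both strands for exact matches. Of 27025 genes with a promoter entry, 37 (0.137%) held an ERSE, and of the 11158 tested genes with an entry, 21 (0.188%) did. Among the called higher genes with an entry the count was 10 of 369 (2.71%), among those beyond 2-fold it was 8 of 111 (7.21%), among called lower genes it was 1 of 382 (0.262%), and among ER chaperones it was 7 of 15 (46.7%). The 10 higher genes were Creld2, Hspa5, Hsp90b1, Syvn1, Calr, Dnajc3, Pdia6, Alg12, Canx and Pan2. ERSE-II was found in 12 promoters (0.0444%), 2 of them of higher genes, Herpud1 and Dnajb11. Sdf2l1 and Dnajb9 had an entry with no exact match to either, and Manf and Hyou1 had no entry. A match is a description of letters in this window and not a measured site. The 250 bases before the start site follow for 6 of these genes, 5′ to 3′ on the gene's strand, with the fixed letters of ERSE or ERSE-II in capitals: Hspa5 at chr2:34771840-34772089 (+), Creld2 at chr15:88819396-88819645 (+), Hsp90b1 at chr10:86705445-86705694 (-), Pdia6 at chr12:17266339-17266588 (+), Syvn1 at chr19:6046326-6046575 (+) and Herpud1 at chr8:94386179-94386428 (+).
Hspa5: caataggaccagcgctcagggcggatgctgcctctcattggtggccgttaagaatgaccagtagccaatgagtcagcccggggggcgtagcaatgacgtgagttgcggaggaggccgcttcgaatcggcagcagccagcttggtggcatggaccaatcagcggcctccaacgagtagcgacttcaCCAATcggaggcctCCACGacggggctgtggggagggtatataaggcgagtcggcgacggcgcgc
Creld2: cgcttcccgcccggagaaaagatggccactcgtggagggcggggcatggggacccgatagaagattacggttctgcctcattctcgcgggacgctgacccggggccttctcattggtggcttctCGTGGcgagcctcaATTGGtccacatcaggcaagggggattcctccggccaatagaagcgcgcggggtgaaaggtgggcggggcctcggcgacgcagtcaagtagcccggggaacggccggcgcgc
Hsp90b1: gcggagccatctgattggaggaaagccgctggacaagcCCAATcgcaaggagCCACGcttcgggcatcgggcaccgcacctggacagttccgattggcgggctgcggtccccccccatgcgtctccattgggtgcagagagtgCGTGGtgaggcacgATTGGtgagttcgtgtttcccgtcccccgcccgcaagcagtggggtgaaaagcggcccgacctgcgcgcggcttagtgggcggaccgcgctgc
Pdia6: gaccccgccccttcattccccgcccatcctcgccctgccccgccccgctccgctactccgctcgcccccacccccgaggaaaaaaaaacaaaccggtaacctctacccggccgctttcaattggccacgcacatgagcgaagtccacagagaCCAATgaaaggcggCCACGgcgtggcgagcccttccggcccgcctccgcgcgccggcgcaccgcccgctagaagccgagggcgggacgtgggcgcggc
Syvn1: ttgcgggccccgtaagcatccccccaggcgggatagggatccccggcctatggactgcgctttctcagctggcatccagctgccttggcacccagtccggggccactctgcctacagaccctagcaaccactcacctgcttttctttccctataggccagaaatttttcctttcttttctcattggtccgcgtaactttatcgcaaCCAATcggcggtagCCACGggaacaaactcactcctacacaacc
Herpud1: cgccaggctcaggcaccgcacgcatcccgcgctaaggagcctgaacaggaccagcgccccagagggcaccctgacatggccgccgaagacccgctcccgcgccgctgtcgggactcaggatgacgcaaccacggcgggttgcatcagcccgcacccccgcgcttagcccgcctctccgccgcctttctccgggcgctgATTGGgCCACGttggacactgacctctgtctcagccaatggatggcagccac

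The match begins at position -65 from the start site in Hspa5, -98 in Pdia6 and -44 in Syvn1, and at -126 in Creld2 on the opposite strand. Hsp90b1 holds a match on each strand, at -212 and -107, and the ERSE-II of Herpud1 begins at -52. The genes printed rose to different extents. Hsp90b1, the ER Hsp90 GRP94, was at 1469, 1433 and 1726 CPM and then 5975, 6476 and 5906 CPM, a log2 difference of 1.99 (SE 0.13, adjusted p = 4.59e-13), while Pdia6, a disulfide isomerase, went from 387, 419.6 and 435 to 1251, 1279.7 and 1174 CPM, a log2 difference of 1.58 (SE 0.11, adjusted p = 3.07e-12). In Hyou1, an ER Hsp110 that resets BiP, the log2 difference was 2.01 (SE 0.13, adjusted p = 1.58e-12), from 175, 177 and 179.6 to 689, 758 and 698 CPM. All libraries with thapsigargin exceeded all without it for each of these genes. Dnajb9, a BiP co-chaperone whose induction is known to need IRE1 and XBP1, was at 14.5, 11.9 and 13.99 CPM and then 62.2, 62.0 and 57.7 CPM, a log2 difference of 2.17 (SE 0.16, adjusted p = 1.07e-11). The oxidase genes parted: Ero1lb rose by 2.34 (SE 0.22, adjusted p = 3.28e-09) on the log2 scale, whereas Ero1l, which was at 124, 120.1 and 140.2 and 132, 135 and 129.8 CPM, was not called (log2 difference 0.05 (SE 0.19, adjusted p = 0.962)), nor was the isomerase gene Ppib.

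**Figure D1:**
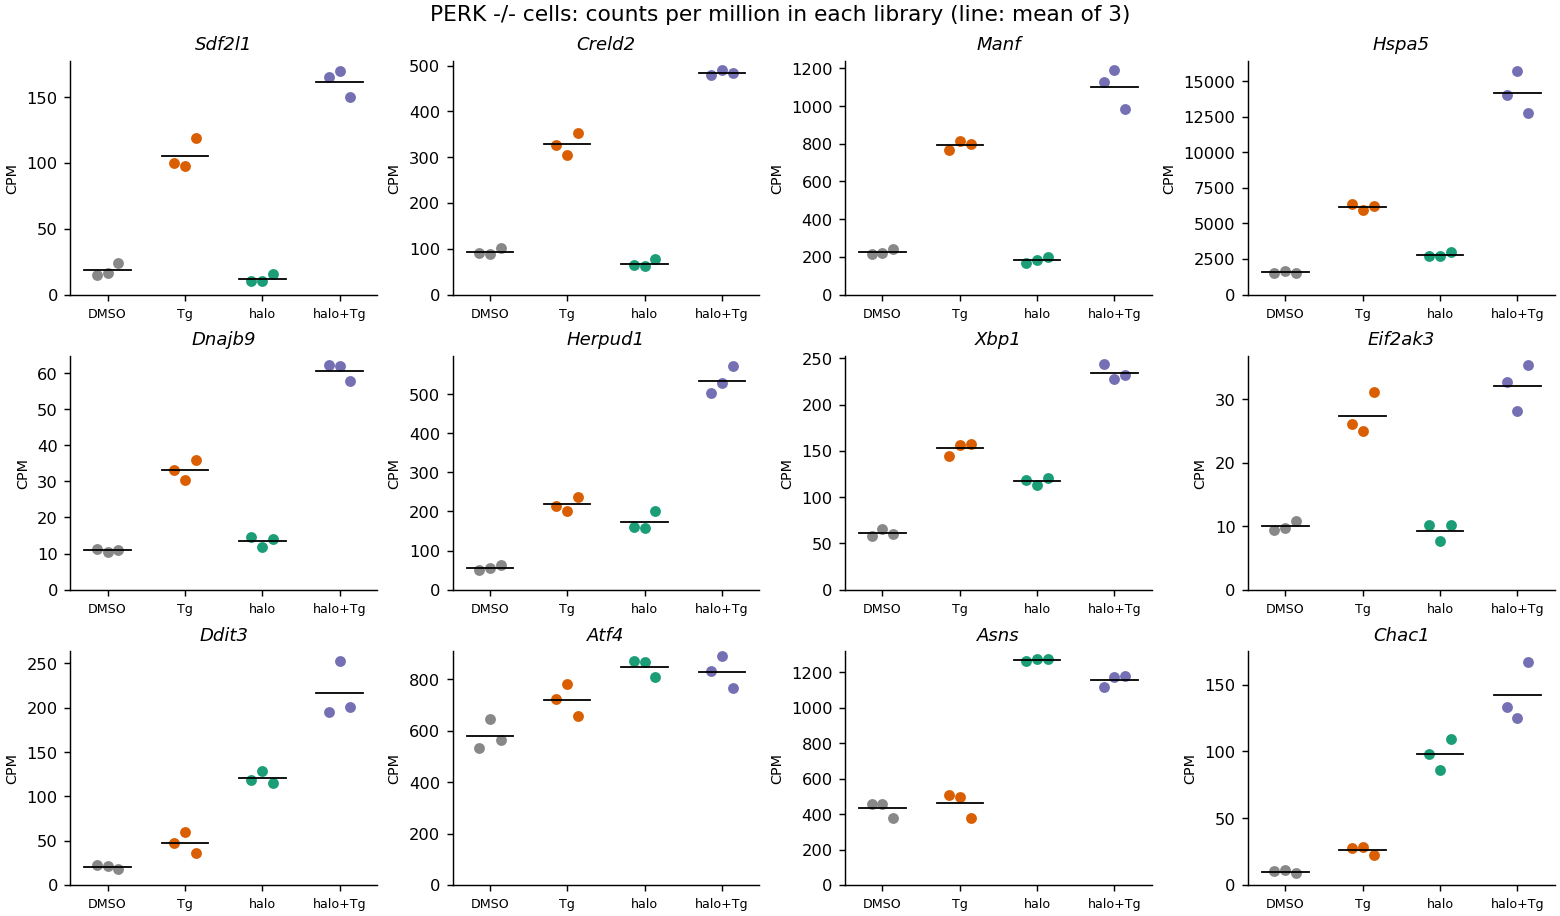
Level of 12 UPR and ISR genes in PERK -/- cells (y axis, CPM, linear and starting at 0), with 1 point per library for DMSO, thapsigargin (Tg), halofuginone (halo) and both drugs and a line at each group mean. For Hspa5 the 3 libraries with both drugs sit at 12760.1 to 15730.2 CPM, above the 3 on thapsigargin alone at 5909.8 to 6364 CPM, while for Asns both groups with halofuginone are above those without it.

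Downstream of folding, genes of ER-associated degradation (ERAD), which returns misfolded protein to the proteasome, were higher in 10 of 14 cases and lower in 0, with a median log2 difference of 0.65. Herpud1, a scaffold of the ERAD ligase, was at 161, 158 and 202 CPM on halofuginone and 504, 528 and 572 CPM with thapsigargin, a log2 difference of 1.62 (SE 0.16, adjusted p = 4.06e-09). The ligase gene Syvn1 (HRD1) went from 47.9, 46.2 and 46.0 to 156, 161 and 166 CPM, a log2 difference of 1.79 (SE 0.15, adjusted p = 2.52e-10), and its partner Sel1l from 37.9, 40.9 and 46.1 to 125, 138 and 140.2 CPM, a log2 difference of 1.69 (SE 0.16, adjusted p = 4.07e-09). Groups did not overlap for any of these ligase genes. Derl3 held an ERSE but stayed at or under 0.466 CPM in both groups and was not called. The translocon, glycosylation and COPII list, which brings proteins into the ER and on to the Golgi, had 16 of 25 members higher and 0 lower, with a smaller median log2 difference of 0.38. Its pore subunit Sec61a1 was at 352, 395 and 311 CPM and then 492, 542 and 498 CPM, a log2 difference of 0.53 (SE 0.09, adjusted p = 7.7e-05).

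Of 10 genes for UPR sensors and their processing, 3 were higher and 0 lower. Xbp1, the target of IRE1 splicing, was at 119, 113 and 121 CPM and rose to 243, 228 and 231 CPM, a log2 difference of 0.99 (SE 0.14, adjusted p = 8.05e-06). These totals do not separate spliced from unspliced Xbp1. Creb3l2, an ER-bound transcription factor cut like ATF6, went from 10.3, 11.6 and 10.97 to 45.5, 39.5 and 56.0 CPM, a log2 difference of 2.10 (SE 0.19, adjusted p = 1.92e-09), and the third was Eif2ak3 itself, whose remaining RNA rose by 1.78 (SE 0.19, adjusted p = 3.27e-08). Ern1, the gene of IRE1, and Atf6 were not called, with log2 differences of -0.06 (SE 0.20, adjusted p = 0.943) and 0.01 (SE 0.16, adjusted p = 1). Their levels overlapped between the groups, with Atf6 at 122, 119 and 139.7 and 119.7, 134 and 130.1 CPM.

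Calcium genes moved little as a group. Among 17 genes of ER calcium handling 2 were higher and 1 lower. Atp2a2 encodes SERCA2, the pump that thapsigargin blocks, and was at 597, 627 and 623 CPM and then 921, 1024 and 1036 CPM, a log2 difference of 0.69 (SE 0.09, adjusted p = 3.84e-06). Saraf, a negative regulator of store-operated calcium entry, was higher by 0.46 (SE 0.10, adjusted p = 0.00195). Stim2, a sensor of ER calcium that opens that entry, fell from 48.7, 54.3 and 51.1 to 25.9, 21.1 and 24.9 CPM, a log2 difference of -1.10 (SE 0.15, adjusted p = 5.93e-06), with no overlap between the groups.

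IRE1 also cuts a set of mRNAs at the ER membrane, a process called regulated IRE1-dependent decay (RIDD). Of 7 listed substrates 3 were lower and 0 higher, with a median log2 difference of -0.31. Hgsnat, a lysosomal membrane acetyltransferase, was at 68.5, 74.9 and 71.3 CPM on halofuginone and 16.5, 20.5 and 16.0 CPM with thapsigargin, a log2 difference of -2.02 (SE 0.11, adjusted p = 1.11e-14). Scara3, a scavenger receptor, went from 19.3, 17.0 and 15.4 to 4.79, 6.05 and 4.56 CPM, a log2 difference of -1.75 (SE 0.21, adjusted p = 4.87e-07). No library with thapsigargin overlapped those without it in either gene. Col6a1 was lower by a small amount, with a log2 difference of -0.31 (SE 0.09, adjusted p = 0.0379), and this call was lost in 4 of the 6 fits that left out 1 library (adjusted p up to 0.202). Bloc1s1, the best known substrate, was at 21.8, 23.4 and 18.5 CPM and 15.4, 14.1 and 10.99 CPM and did not pass (log2 difference -0.65 (SE 0.22, adjusted p = 0.0707)). Its groups did not overlap. Sparc and Pdgfrb had log2 differences of -0.02 and -0.07, and Pmp22 of 0.41, none of them called in the fit without a block. With the replicate number as a block, Bloc1s1 was called lower and Pmp22 higher, which made 4 lower and 1 higher of 7.

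The ISR genes stayed near the level that halofuginone had set. Of 20 ISR regulators and secreted factors 1 was higher and 0 lower, with a median log2 difference of 0.02. Of 14 amino acid and one-carbon enzymes 0 were called, of 10 amino acid transporters 1 was lower, and of 20 cytosolic aminoacyl-tRNA synthetases 1 was lower. Atf4, the transcription factor at the head of the programme, was at 869.9, 869 and 808 CPM and then 832, 893 and 768 CPM, a log2 difference of -0.03 (SE 0.11, adjusted p = 0.95). Asns, the asparagine synthetase gene, was at 1266, 1276 and 1274 CPM and 1115, 1176 and 1178 CPM, a log2 difference of -0.14 (SE 0.10, adjusted p = 0.587), where cells on DMSO had 457, 459 and 379.6 CPM. All libraries of both halofuginone groups were above those on DMSO, and those with both drugs lay slightly below those on halofuginone. Trib3, a pseudokinase that curbs ATF4 output, had a log2 difference of 0.19 (SE 0.26, adjusted p = 0.815), and Psat1, of serine synthesis, one of -0.21 (SE 0.11, adjusted p = 0.362). Chac1, a glutathione-degrading enzyme, read 98.4, 86.3 and 109 CPM and 134, 125 and 167 CPM. Its groups did not overlap, but the log2 difference of 0.53 did not pass (adjusted p = 0.11).

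Ddit3 was the exception in this list. It encodes CHOP, a stress transcription factor that is induced by ATF4 and by ATF6, and was at 22.2, 21.6 and 18.5 CPM on DMSO, 47.4, 60.3 and 35.8 CPM on thapsigargin, 119, 128 and 115 CPM on halofuginone and 195, 252 and 201 CPM on both. The libraries with both drugs were the highest of the 4 groups. The log2 difference between both drugs and halofuginone was 0.84 (SE 0.20, adjusted p = 0.00717), and without replicate 2 of the group on both drugs it was 0.71 (adjusted p = 0.0586). The gene model overlaps those of Mars and Mbd6. Slc1a5, a glutamine transporter, fell from 105, 119 and 90.4 to 58.4, 61.4 and 53.3 CPM, a log2 difference of -0.86 (SE 0.12, adjusted p = 8.75e-06). The synthetase called lower was Rars (log2 difference -0.38 (SE 0.11, adjusted p = 0.0379)), a call lost in 5 of 6 fits that left out 1 library (adjusted p up to 0.212). The transcripts of the other eIF2-alpha kinases did not pass: Eif2ak4 (GCN2) had a log2 difference of 0.01, Eif2ak1 (HRI) of 0.10 and Eif2ak2 (PKR) of -0.09.

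**Figure D2:**
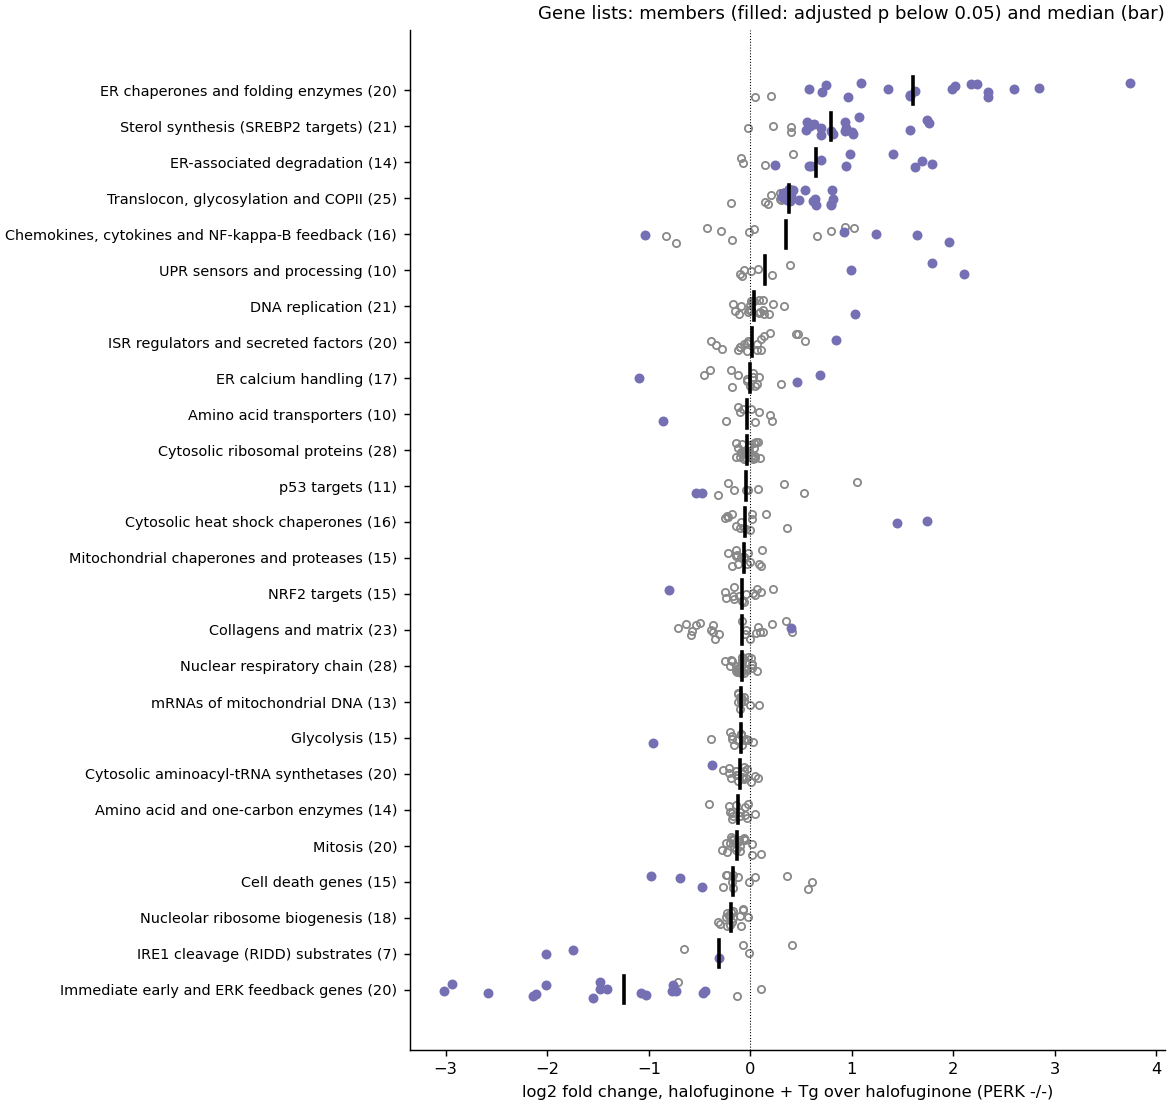
Log2 difference of each listed gene between halofuginone + thapsigargin and halofuginone in PERK -/- cells (x axis), with 1 row per gene list, 1 point per gene tested (filled where called) and a bar at the list's median. The median lies at 1.60 for ER chaperones, 0.79 for sterol synthesis, 0.02 for ISR regulators and -1.25 for immediate early and ERK feedback genes.

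Immediate early genes and the feedback genes of the ERK kinase pathway, which respond within minutes to growth factors, were lower in 17 of 20 cases and higher in 0, with a median log2 difference of -1.25. Egr1, a zinc-finger transcription factor, was at 134, 81.1 and 96.5 CPM on halofuginone and 18.5, 16.9 and 16.6 CPM with thapsigargin, a log2 difference of -2.58 (SE 0.22, adjusted p = 3.85e-10). Egr3, of the same family, went from 11.6, 11.8 and 9.98 to 1.38, 1.61 and 1.35 CPM, a log2 difference of -2.94 (SE 0.26, adjusted p = 7.73e-10). Its relative Egr2 had a log2 difference of -3.02 (SE 0.33, adjusted p = 8.17e-08), from 4.61, 4.53 and 4.99 to 0.821, 0.6 and 0.318 CPM. The ERK phosphatase genes followed. Dusp5 was at 177, 179.7 and 125 CPM and then 39.5, 36.7 and 33.0 CPM, a log2 difference of -2.14 (SE 0.16, adjusted p = 2.62e-11), and Dusp6 at 50.2, 53.4 and 35.0 CPM and then 19.4, 16.1 and 14.3 CPM, a log2 difference of -1.48 (SE 0.17, adjusted p = 2.48e-07). Every library with thapsigargin was below every library without it for Egr1, Egr3, Dusp5 and Dusp6. Errfi1, an inhibitor of the EGF receptor outside the list, fell from 101, 92.5 and 86.7 to 24.2, 21.5 and 17.5 CPM, a log2 difference of -2.15 (SE 0.12, adjusted p = 2.65e-14). Myc, Dusp1 and Dusp4 were not called, with log2 differences of -0.13, 0.11 and -0.71.

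Large falls were also seen outside these lists. Sema7a, a membrane-anchored semaphorin, went from 40.4, 47.4 and 31.0 to 5.90, 6.93 and 6.41 CPM, a log2 difference of -2.63 (SE 0.25, adjusted p = 4.07e-09). Oaf was at 54.7, 68.0 and 40.5 CPM and then 8.79, 11.5 and 6.17 CPM, a log2 difference of -2.63 (SE 0.21, adjusted p = 1.35e-10). The groups did not overlap in either gene, which was a condition for naming them. The serine protease gene Prss22 and Evi2a, which lies inside an intron of Nf1, had log2 differences of -2.35 and -2.23, both called.

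Genes of sterol synthesis, which the transcription factor SREBP2 turns on when ER cholesterol is low, were higher in 17 of 21 cases and lower in 0, with a median log2 difference of 0.79. Hmgcs1, the first enzyme committed to mevalonate, was at 46.1, 52.0 and 40.0 CPM on halofuginone and 149.6, 192 and 120.2 CPM with thapsigargin, a log2 difference of 1.74 (SE 0.19, adjusted p = 6.52e-08). Cells on DMSO had 295, 323 and 343 CPM, above all libraries of both halofuginone groups. Insig1, the ER anchor that holds SREBP back, went from 11.8, 13.7 and 8.67 to 43.0, 38.3 and 34.7 CPM, a log2 difference of 1.76 (SE 0.20, adjusted p = 1.81e-07), where DMSO libraries had 41.9, 46.7 and 48.1 CPM. For Hmgcs1 every library with both drugs lay between those on halofuginone and those on DMSO. For Insig1 the mean with both drugs lay between the other means, but its libraries overlapped those on DMSO. Mvd, a later enzyme of the pathway, had a log2 difference of 1.57 (SE 0.21, adjusted p = 2.36e-06), and Fdps, which makes farnesyl diphosphate, one of 1.07 (SE 0.17, adjusted p = 3.99e-05). Acat2, a thiolase gene, was among the 4 members not called, with a log2 difference of 0.40.

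**Figure D3:**
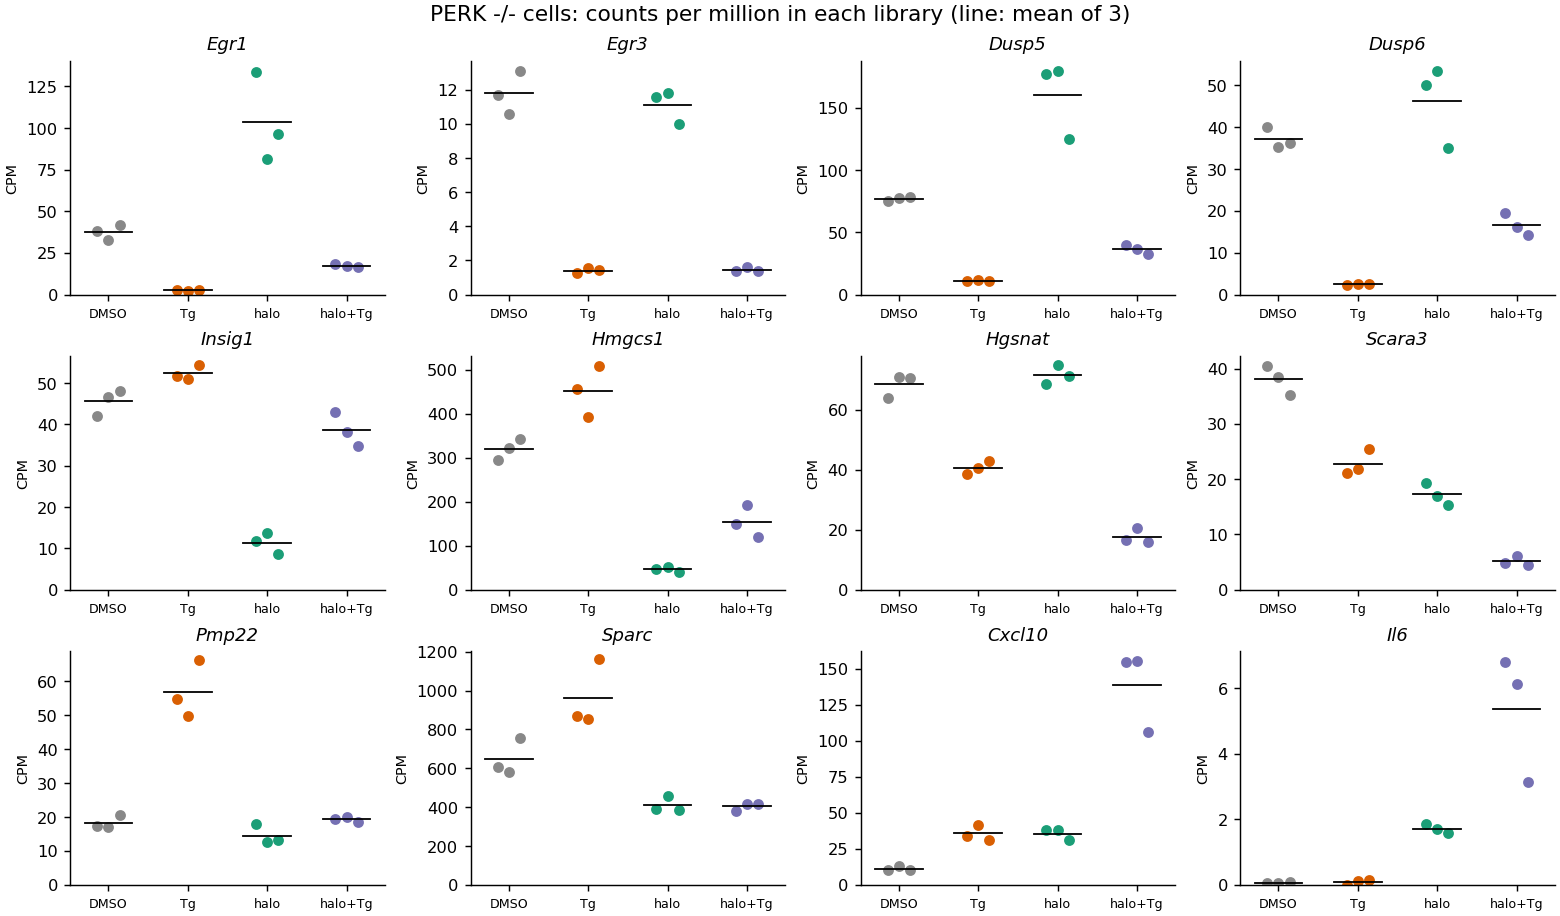
Level of 12 genes outside the chaperone and ISR lists in PERK -/- cells (y axis, CPM, linear and starting at 0), with 1 point per library and a line at each group mean for DMSO, thapsigargin (Tg), halofuginone (halo) and both drugs. Egr1 falls from 81.1 to 134 CPM on halofuginone to 16.6 to 18.5 CPM with both drugs, and Hmgcs1 rises from 40.0 to 52.0 CPM to 120.2 to 192 CPM.

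Calls were also made in smaller groups. Among 16 chemokine, cytokine and NF-kappa-B feedback genes 4 were higher and 1 lower (6 and 5 with the replicate number as a block). Cxcl10, a T-cell chemokine, was at 37.8, 37.8 and 31.4 CPM and then 154, 155 and 106 CPM, a log2 difference of 1.96 (SE 0.28, adjusted p = 1.09e-05). Ccl7 and Ccl5 rose by 1.24 and 0.92 on the log2 scale. Il6 was called at low levels, from 1.86, 1.70 and 1.59 to 6.80, 6.14 and 3.15 CPM, a log2 difference of 1.64 (SE 0.50, adjusted p = 0.0433), and the call was lost in 5 of 6 fits that left out 1 library (adjusted p up to 0.175). Lif, a cytokine of the same family as Il6, fell from 55.0, 58.0 and 68.5 to 31.3, 27.8 and 29.4 CPM, a log2 difference of -1.04 (SE 0.14, adjusted p = 1.93e-06). Of 15 cell death genes 3 were lower (2 higher and 4 lower with the block). Bcl2l1, which encodes the survival protein BCL-XL, was at 115, 125 and 129 CPM and then 60.3, 56.7 and 71.0 CPM, a log2 difference of -0.98 (SE 0.13, adjusted p = 3.93e-06). The calls of the others, Bcl2l11 (log2 difference -0.69) and Bok (-0.48), were lost in 4 and 3 of 6 fits that left out 1 library (adjusted p up to 0.144 and 0.285). Slc2a1, the glucose transporter GLUT1, was the only one of 15 glycolysis genes called, at 186, 218 and 157 CPM and then 97.2, 106 and 86.0 CPM, a log2 difference of -0.96 (SE 0.13, adjusted p = 3.21e-06).

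Many groups had few calls or 0 in the fit without a block. Cdc6, which licenses origins, was the single higher gene of 21 for DNA replication (log2 difference 1.03 (SE 0.18, adjusted p = 0.000157)), and 0 of 20 mitosis genes were called. Of 16 cytosolic heat shock chaperones 2 were higher, Hspa1a and Hspa1b, near-identical copies that counting can split. The count was 0 of 28 cytosolic ribosomal proteins, 0 of 18 nucleolar genes of ribosome biogenesis, 0 of 13 mRNAs of mitochondrial DNA, 0 of 15 mitochondrial chaperones and proteases and 0 of 28 nuclear genes of the respiratory chain. Over all genes, 2675 had an unadjusted p below 0.05 in edgeR. Of 23 collagen and matrix genes 1 was higher, of 15 NRF2 targets 1 was lower (Osgin1) and of 11 p53 targets 2 were lower. These counts depended on the fit. The blocked fit called 10 of the 23 collagen and matrix genes lower and 4 higher. It called 3 of the p53 targets lower and 2 higher, and 2 of the NRF2 targets lower and 0 higher.

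The response was next set beside that to thapsigargin alone in PERK -/- cells, where DMSO was the control. That comparison called 4487 genes (27.9%), 2449 higher (15.2%) and 2038 lower (12.7%). The 2 comparisons share no library. Of the 526 genes higher with thapsigargin on halofuginone, 382 were higher with thapsigargin alone, which is 72.6% of the former and 15.6% of the latter, and 5 were lower. Of the 507 lower genes 334 were lower alone (65.9% and 16.4%), and 17 were higher. The difference between the 2 responses was itself called for 1043 genes (6.49%), 531 positive (3.31%) and 512 negative (3.19%).

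ER chaperones had the larger rise on halofuginone in 7 of 20 cases and the smaller in 0. Creld2 rose by 2.84 on halofuginone and by 1.81 alone, a difference of 1.03 (SE 0.20, adjusted p = 0.00145) on the log2 scale. With Manf the difference was 0.79 (SE 0.19, adjusted p = 0.00785), and with Dnajb11, a BiP co-chaperone named after its values were seen, it was 0.68 (SE 0.14, adjusted p = 0.00168). For Sdf2l1 it was 1.21 (SE 0.38, adjusted p = 0.0457), and this call was lost in 10 of 12 fits that left out 1 library (adjusted p up to 0.156). With Hspa5 a log2 difference of 0.37 (SE 0.20, adjusted p = 0.324) did not pass, although every library with both drugs was above every library on thapsigargin alone. Other ER lists did not share the larger rise. The translocon, glycosylation and COPII list had 0 positive and 1 negative of 25 differences called (0 and 7 with the replicate block), with a median of -0.25. Of 14 ERAD genes 0 had a positive and 1 a negative called difference, with a median of -0.23. RIDD substrates had a called negative difference in 5 of 7 cases. Thapsigargin alone raised 4 of the 7 and lowered 2, with a median log2 difference of 0.28. A negative difference was therefore not always a larger fall on halofuginone. Hgsnat fell by 2.02 on halofuginone and by 0.75 alone on the log2 scale, a difference of -1.26 (SE 0.15, adjusted p = 1.72e-06). Pmp22, a myelin protein, was at 17.4, 17.1 and 20.5 CPM on DMSO and 54.8, 49.9 and 66.2 CPM on thapsigargin, against 17.9, 12.5 and 13.2 and 19.5, 19.9 and 18.5 CPM for the halofuginone groups, a difference of -1.22 (SE 0.21, adjusted p = 0.000289).

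Immediate early and ERK feedback genes fell less on halofuginone in most called cases, with 10 of 20 differences positive and 2 negative. Dusp6 fell from 40.1, 35.2 and 36.3 CPM on DMSO to 2.22, 2.51 and 2.51 CPM on thapsigargin, a log2 difference of -3.94 against -1.48 on halofuginone, and the difference was 2.47 (SE 0.26, adjusted p = 3.33e-07). In Egr1 it was 1.23 (SE 0.32, adjusted p = 0.0161), with an adjusted p of 0.0517 in 1 of 12 fits that left out 1 library. The ETS factor gene Etv5 and Fosl1, both named after their values were seen, differed by 2.15 and 1.26. Outside the list, Ctgf, a matrix protein gene of the YAP pathway, showed the largest positive difference of those named by rule. It was at 131, 126 and 154 CPM on DMSO and 11.4, 11.6 and 7.05 CPM on thapsigargin, but at 253, 259 and 338 and 178, 169 and 223 CPM without and with thapsigargin on halofuginone, a difference of 3.19 (SE 0.45, adjusted p = 2.65e-05). The collagenase gene Mmp13 and Tnfsf11 (RANKL) differed by 2.87 and 2.46.

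Thapsigargin alone lowered 16 of 18 nucleolar genes of ribosome biogenesis, with a median log2 difference of -1.02, and on halofuginone 0 of 18 were called, with a median of -0.19. The difference was called for 9, all positive. Nop2, a ribosomal RNA methyltransferase chosen after its values were seen, was at 398, 406 and 431 CPM on DMSO and 158, 154 and 137 CPM on thapsigargin, against 397, 413 and 359 and 322, 358 and 315 CPM on halofuginone, a difference of 1.23 (SE 0.17, adjusted p = 2.49e-05). Sterol synthesis genes rose more on halofuginone in 7 of 21 cases, and less in 0. Insig1, which was at 51.7, 51.0 and 54.3 CPM on thapsigargin, differed by 1.56 (SE 0.28, adjusted p = 0.000434), Hmgcs1 by 1.24 (SE 0.26, adjusted p = 0.00257) and Mvd by 1.12 (SE 0.29, adjusted p = 0.0141).

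The ISR list went the other way. Thapsigargin alone raised 12 of its 20 members and lowered 1, with a median log2 difference of 0.71, and 5 of the differences were called, all negative. Sesn2, a stress-induced inhibitor of mTORC1, was at 15.2, 12.8 and 13.3 CPM on DMSO and 22.4, 24.7 and 22.2 CPM on thapsigargin, against 99.8, 108 and 85.4 and 90.2, 93.8 and 88.6 CPM on halofuginone, a difference of -0.85 (SE 0.12, adjusted p = 2.65e-05). Vldlr, a lipoprotein receptor gene, differed by -1.45 (SE 0.24, adjusted p = 0.00023). Both were chosen after their values were seen. Trib3 rose with thapsigargin alone by 1.56 and differed by -1.37 (SE 0.38, adjusted p = 0.0239), a call lost in 6 of 12 fits that left out 1 library (adjusted p up to 0.0792). In Ddit3 the difference was -0.36 (SE 0.29, adjusted p = 0.565) and did not pass. Further genes that thapsigargin raised more on DMSO than on halofuginone were Mest, Lrrc17 and Cacna1a. Mest, an imprinted hydrolase gene, was at 11.3, 12.4 and 10.7 and 57.6, 54.8 and 60.7 CPM without and with thapsigargin on DMSO, and at 6.31, 6.13 and 6.34 and 5.61, 6.68 and 6.68 CPM on halofuginone, a difference of -2.31 (SE 0.25, adjusted p = 8.33e-07). Lrrc17 and Cacna1a, a calcium channel gene, differed by -1.96 and -1.88.

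**Figure D4:**
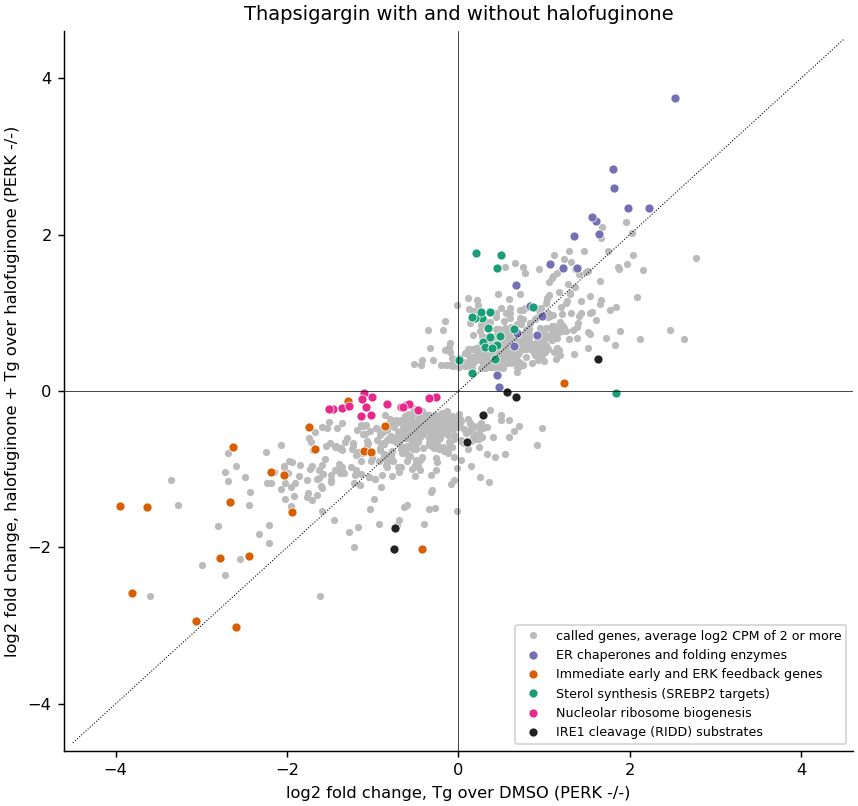
Log2 difference made by thapsigargin alone (x axis, against DMSO) and by thapsigargin added to halofuginone (y axis, against halofuginone) in PERK -/- cells, for the 897 genes called on halofuginone whose average log2 CPM was 2 or more (grey) and, in colour, the tested members of 5 gene lists, called or not. Each point is a gene, the dotted diagonal marks equal differences, and 3 called genes lie outside the axes. Creld2 lies above the diagonal, and Dusp6 and Egr1 lie nearer 0 on the y axis than on the x axis.

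In WT cells, which keep PERK, thapsigargin on halofuginone called 2242 genes (14%), 1306 higher (8.13%) and 936 lower (5.83%). With library size alone as the scale the higher share of these calls was 76.2%, against 58.3% here. The replicate numbers paired these WT libraries, and with the number as a block the count was 3929. Of the 526 genes higher in PERK -/- cells 334 were higher in WT (63.5%, and 25.6% of the WT genes), and of the 507 lower genes 282 were lower (55.6% and 30.1%). The difference between the genotypes was called for 226 genes (1.41%), 40 positive (0.249%) and 186 negative (1.16%), and for 962 with the block. With only the groups compared in the fit the difference was called for 63 genes, and the WT response for 742. The positive share of the calls was 17.7% here, 34.3% with the block, 42.1% without the filter on low counts and 9.66% with library size alone as the scale.

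The ER chaperones had the smaller rise in PERK -/- cells in 5 of 20 cases (8 with the block), and the larger in 0. Sdf2l1 rose by 3.74 in PERK -/- and by 5.78 in WT cells on the log2 scale, a difference of -2.04 (SE 0.40, adjusted p = 0.00507). Its level with both drugs was 162 ± 10.5 (SD, n = 3) CPM in PERK -/- and 174 ± 52.8 (SD, n = 3) CPM in WT cells, whereas on halofuginone it was 12.1 ± 3.13 (SD, n = 3) and 3.15 ± 0.398 (SD, n = 3) CPM. Hyou1 differed by -1.45 (SE 0.18, adjusted p = 6.85e-05) and Creld2 by -1.35 (SE 0.21, adjusted p = 0.000539). In Creld2 too the levels with both drugs lay close, at 485 ± 4.64 (SD, n = 3) and 475 ± 116 (SD, n = 3) CPM, and those on halofuginone apart, at 67.7 ± 7.98 (SD, n = 3) and 26.1 ± 1.37 (SD, n = 3) CPM. Dnajb9 differed by -0.93 (SE 0.22, adjusted p = 0.0221), a call lost in 5 of 12 fits that left out 1 library (adjusted p up to 0.0944). Hspa5 did not pass, with a difference of 0.24 (SE 0.20, adjusted p = 0.688). Xbp1, with a difference of -0.64 (SE 0.20, adjusted p = 0.117), did not pass, but was called with the block (-0.65, adjusted p = 0.00232). Of the translocon list 5 of 25 (11 with the block) rose less in PERK -/- cells, among them Sec61a1, chosen after its value was seen, with a difference of -0.73 (SE 0.12, adjusted p = 0.00138).

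No member of the ISR list was called for a difference between genotypes by edgeR, where 1959 of all genes had an unadjusted p below 0.05. With the block 1 of 20 was called, Ddit4, an mTORC1 inhibitor gene, whose difference without the block was -1.01 (SE 0.37, adjusted p = 0.21). The list's median difference was -0.18, with 14 of 20 below 0, and in WT cells 2 of 20 members were higher (3 with the block), with a median of 0.19. In Ddit3 the difference was 0.39 (SE 0.29, adjusted p = 0.634), in Atf4 -0.25 (SE 0.15, adjusted p = 0.529) and in Chac1 -0.18 (SE 0.27, adjusted p = 0.866). The RIDD list had 0 of 7 differences called, with Hgsnat lower by 1.74 in WT cells and a difference of -0.28 (SE 0.15, adjusted p = 0.453). Among immediate early and ERK feedback genes 4 of 20 differed, all with the larger fall in PERK -/- cells. Dusp6 was at 69.3 ± 3.15 (SD, n = 3) CPM in WT cells on halofuginone and 58.9 ± 15.1 (SD, n = 3) CPM with both drugs, a log2 difference of -0.24 that did not pass, and the genotypes differed by -1.24 (SE 0.24, adjusted p = 0.00441). In Dusp5 the difference was -1.28 (SE 0.22, adjusted p = 0.00176), in Etv5 -1.75 (SE 0.28, adjusted p = 0.000775) and in Egr3 -1.42. Outside the list, Sema7a differed by -1.86 (SE 0.34, adjusted p = 0.0031). Slc1a5 was at 22.6 ± 3.73 (SD, n = 3) CPM in WT cells on halofuginone and at 23.1 ± 0.944 (SD, n = 3) CPM with both drugs, and the genotypes differed by -0.89 (SE 0.18, adjusted p = 0.0053). Cxcl10 was the chemokine with the opposite sign, a difference of 1.51 (SE 0.39, adjusted p = 0.0436), lost in 10 of 12 fits that left out 1 library (adjusted p up to 0.141).

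Thapsigargin was also added to BtdCPU in PERK -/- cells, which called 2701 genes (16.8%), 1500 higher (9.34%) and 1201 lower (7.48%). That response differed from the one on halofuginone for 325 genes (2.02%), 150 positive (0.934%) and 175 negative (1.09%). With library size alone as the scale the positive share was 61.8%, against 46.2% here. The ISR list showed 16 of 20 members higher on BtdCPU against 1 of 20 on halofuginone, and 5 differences were called, all negative. The list started lower on BtdCPU, at a mean log2 level over DMSO of 1.74 against 2.58 on halofuginone. With thapsigargin these levels were 2.65 and 2.66. Atf3, an ATF4-induced transcription factor, was at 12.3 ± 2.44 (SD, n = 3) CPM on BtdCPU and 51.1 ± 3.63 (SD, n = 3) CPM with thapsigargin, against 62.8 ± 12.9 (SD, n = 3) and 86.0 ± 7.50 (SD, n = 3) CPM on halofuginone, a difference of -1.61 (SE 0.27, adjusted p = 0.00078). Ppp1r15a (GADD34), which brings the eIF2-alpha phosphatase, was at 128 ± 14.2 (SD, n = 3) and 426 ± 26.3 (SD, n = 3) CPM on BtdCPU, against 347 ± 6.61 (SD, n = 3) and 372 ± 31.6 (SD, n = 3) CPM, a difference of -1.63 (SE 0.30, adjusted p = 0.00185). Both were chosen after their values were seen. In Ddit3 the difference was -1.16 (SE 0.29, adjusted p = 0.026), lost in 7 of 12 fits that left out 1 library (adjusted p up to 0.0857).

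Of 21 sterol genes 6 had a more positive response on halofuginone than on BtdCPU, and 0 a more negative one. The list started at a mean log2 level over DMSO of -1.47 on halofuginone and -0.91 on BtdCPU. With thapsigargin these levels were -0.64 and -0.74. On BtdCPU Hmgcs1 was at 124 ± 24.0 (SD, n = 3) CPM and then 109 ± 13.8 (SD, n = 3) CPM. The difference between the responses was 1.92 (SE 0.26, adjusted p = 7.13e-05). Insig1 was at 19.7 ± 3.32 (SD, n = 3) and 20.8 ± 1.71 (SD, n = 3) CPM on BtdCPU, a difference of 1.68 (SE 0.28, adjusted p = 0.00078). The ER chaperones had 5 positive and 1 negative of 20, with Creld2 at 1.25 (SE 0.20, adjusted p = 0.000619) and Hspa5, not called, at -0.38 (SE 0.20, adjusted p = 0.43). Dusp6 fell more on BtdCPU, with a difference of 1.83 (SE 0.25, adjusted p = 7.13e-05).

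**Figure D5:**
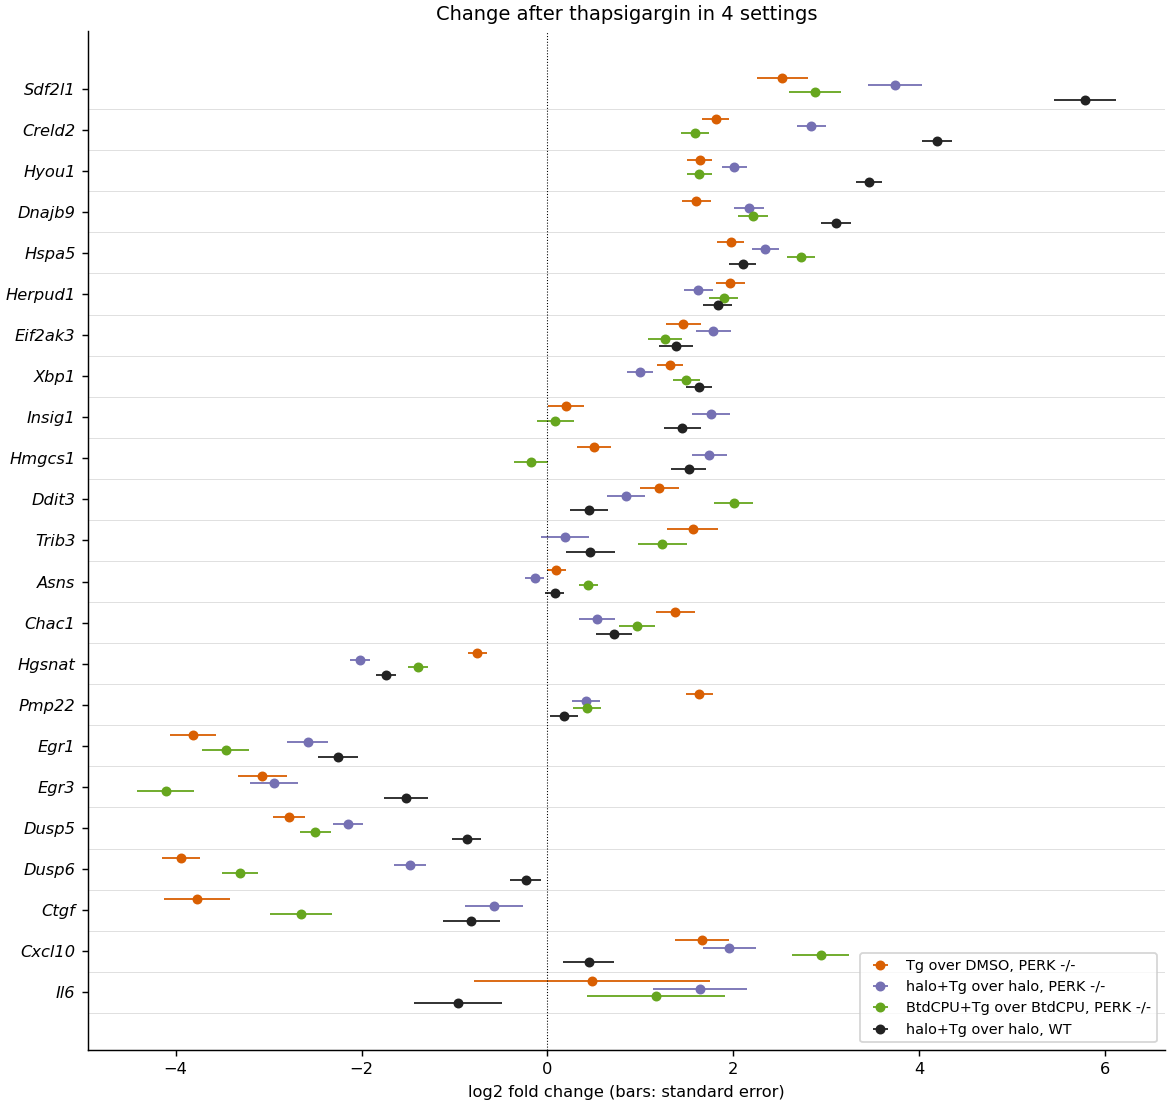
Log2 difference made by thapsigargin (x axis, with bars of 1 SE) for 23 genes in 4 settings: on halofuginone in PERK -/- cells, alone in PERK -/- cells, on halofuginone in WT cells and on BtdCPU in PERK -/- cells. For Sdf2l1 the points run from 2.53 alone to 5.78 in WT cells, and for Dusp6 from -3.94 alone to -0.24 in WT cells.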

How the data were processed

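Gene-level RNA-seq of MEF was analysed from 1 deposited table of estimated counts with a column per library, 36 in 12 groups of 3. Per the labels' protocols, total RNA was depleted of ribosomal RNA and made into strand-specific DNBSEQ libraries. Per the submitters' processing notes the build was GRCm39 and DESeq was used; the aligner, the counter and the annotation are not given in the sources used here, and neither is whether counting used strand. The deposited expected counts hold 0.025 in place of 0 (50.6% of values), and 2.69% of the other values were not whole. These were set to 0 or rounded to whole counts. Of 36930 entries, 27 turned into dates were left out (0.206% to 0.278% of counts) and 39 symbols listed more than once were summed. Library totals ranged from 32454257 to 37178107, with 13670 to 13919 genes at 10 counts or more in the 6 libraries compared.

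Tests used edgeR 4.0.16 in R 4.3.3 (quasi-likelihood with robust fitting, TMM scaling, filterByExpr, 12 group means over all 36 libraries, 24 residual degrees of freedom), with Benjamini-Hochberg adjustment over the 16065 genes tested and calls below 0.05. CPM were computed on TMM-scaled totals, log2 differences are edgeR's, and each SE is the log2 difference divided by the square root of F. A difference between responses is an interaction contrast of 4 groups with no library in common. Alternatives were DESeq2 1.42.0, other scalings, no filter, only the compared groups, a replicate block and leaving out each library.

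The groups, gene lists and tests were chosen with earlier results of these data known. The genes named were 15 fixed ER stress and ISR readouts, the 10 largest rises and 10 largest falls among called genes of average log2 CPM 2 or more whose groups did not overlap, up to 4 called members per list and direction, all members of the sensor, RIDD, calcium and mitochondrial DNA lists, and the 4 largest differences of each sign per interaction. For the 10 largest rises and 10 largest falls, groups that do not overlap follow from this choice and are no added evidence. Genes named beside these were chosen after their values were seen. Replicate numbers were checked as pairs by correlating deviations from group means for halofuginone with and without thapsigargin. In PERK -/- cells r was 0.0443, 0.136 and 0.208 for the same number and at most 0.0399, 0.0191 and -0.0573 for another. In WT cells it was 0.218, 0.308 and 0.502, and at most 0.092, 0.115 and -0.264. The same number gave the higher r in both genotypes, by little in replicate 1 of PERK -/- cells. The main fit used no block in either genotype. Promoters came from RefSeq (GRCm38.p6) and were matched by symbol, and 11158 tested genes had one.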

Additional observations from a re-analysis of the deposited data

Results flagged for a closer look

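Each result here was singled out because 2 responses to thapsigargin differed in an interaction test (edgeR, adjusted p below 0.05). All values are differences of log2 differences, with 3 libraries in each of the 4 groups.

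The response on halofuginone against that on DMSO, both in PERK -/- cells, differed for 1043 genes. Among genes named, it was more positive on halofuginone by 3.19 for Ctgf, 2.87 for Mmp13, 2.47 for Dusp6, 2.46 for Tnfsf11, 2.15 for Etv5, 1.56 for Insig1, 1.37 for Gm9767, 1.26 for Fosl1, 1.24 for Hmgcs1, 1.23 for Egr1, 1.23 for Nop2, 1.21 for Sdf2l1, 1.16 for Spry2, 1.12 for Mvd, 1.12 for Lif, 1.03 for Creld2, 0.85 for Cdc6, 0.79 for Manf, 0.68 for Dnajb11 and 0.67 for Pdia4. More negative values were -0.46 for Creb3, -0.52 for Saraf, -0.53 for Serpinh1, -0.56 for Rcn3, -0.59 for Col6a1, -0.74 for Pdgfrb, -0.77 for Btg2, -0.79 for Itpr2, -0.85 for Sesn2, -1.005 for Oaf, -1.01 for Scara3, -1.11 for Slc2a1, -1.14 for Osgin1, -1.22 for Pmp22, -1.26 for Hgsnat, -1.37 for Trib3, -1.45 for Vldlr, -1.45 for Cdkn1a, -1.61 for Bcl2l11, -1.88 for Cacna1a, -1.96 for Lrrc17, -2.31 for Mest and -3.31 for Trp53inp1. Of these 43 genes 28 were called in each of the 12 fits that left out 1 library, and the highest adjusted p among the other 15 was 0.156.

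PERK -/- against WT cells, both on halofuginone, differed for 226 genes. Positive values were 2.60 for Il6, 1.61 for Hist1h2bc and 1.51 for Cxcl10, and negative values were -0.69 for Dnajb11, -0.73 for Sec61a1, -0.74 for Rpn1, -0.86 for Errfi1, -0.89 for Slc1a5, -0.93 for Dnajb9, -1.06 for Osgin1, -1.24 for Dusp6, -1.28 for Dusp5, -1.35 for Creld2, -1.42 for Egr3, -1.45 for Hyou1, -1.75 for Etv5, -1.86 for Sema7a, -2.02 for Tmem119, -2.04 for Sdf2l1, -2.16 for Foxs1 and -2.23 for Tmem180. Of 23 genes 18 were called in each of 12 such fits, and the highest adjusted p among the other 5 was 0.185. Values of 7.88 for Meg3 and 5.55 for Aplp1 are fitted against groups at 0 counts and are no measure of size. Meg3, a non-coding RNA gene, had 0 counts in each library on halofuginone and 25, 27 and 41 counts with thapsigargin, a level at least 10.1-fold above the limit of 3 counts per library. Aplp1 had 0 counts and then 5, 4 and 8. These are 2 of the 18 genes with at most 3 counts in each PERK -/- library on DMSO, thapsigargin, halofuginone or BtdCPU and over 5 CPM in WT libraries, and the other 16 summed to at most 0.327 CPM with both drugs and 0.162 CPM on halofuginone. Meg3 also had 24, 16 and 37 counts on BtdCPU + Thapsigargin, where Aplp1 had 1, 10 and 3, and both had 0 on thapsigargin alone. The Meg3 model overlaps that of Rtl1.

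Halofuginone against BtdCPU, both in PERK -/- cells with and without thapsigargin, differed for 325 genes. Positive values were 2.50 for Gm11816, 2.43 for Tep1, 2.23 for Gm9767, 2.07 for Ctgf, 1.92 for Hmgcs1, 1.85 for Tnfsf11, 1.83 for Dusp6, 1.68 for Insig1, 1.61 for Tmem119, 1.25 for Creld2, 1.15 for Fosl1, 0.97 for Cdc6, 0.83 for Spry2 and 0.74 for Dnajb11, and negative values were -0.58 for Asns, -0.63 for Hgsnat, -0.72 for Slc2a1, -0.85 for Cdkn1a, -1.02 for Itpr2, -1.16 for Ddit3, -1.18 for Vldlr, -1.61 for Atf3, -1.63 for Ppp1r15a, -2.21 for Fgf21, -2.43 for Car6, -2.45 for Kif21b and -2.56 for Cdsn. Of 27 genes 15 were called in each of 12 such fits, and the highest adjusted p among the other 12 was 0.119.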

How the results depend on the processing

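For thapsigargin added to halofuginone in PERK -/- cells the 1033 calls stayed within 1.5 times under 5 of the 6 settings other than leaving out a library, from 1037 with DESeq2's size factors to 1323 with DESeq2, and ranged from 726 to 904 when 1 library was left out. With the replicate number as a block the count was 1966, and all 1033 genes were among them. For the differences it was 2317 (against thapsigargin alone), 962 (against WT) and 1133 (against BtdCPU), with 3929 for WT cells and 4318 for BtdCPU. With only the groups compared in the fit the differences counted 1696, 63 and 838 in the same order, WT cells 742 and BtdCPU 4200. Without the filter on low counts the differences against WT and BtdCPU counted 401 and 667, and with DESeq2 414 and 561. Leaving out 1 library gave 610 to 933 for the difference against thapsigargin alone (610 without replicate 3 on thapsigargin), 102 to 370 against WT, 126 to 262 against BtdCPU, 1381 to 2222 for WT cells (1381 without replicate 2 on both drugs), 3304 to 3994 for thapsigargin alone and 1886 to 2260 on BtdCPU. Causes of these shifts were not tested. Calls in the gene lists summed to 106 (87 to 147). No called gene took the opposite sign, except 1 of the 4487 for thapsigargin alone without its replicate 1 and 1 without its replicate 3. Of the values of single genes under alternatives 5324 kept their side of the threshold, 694 lost the call and 30 gained it. Scaling moved the median over all genes by at most 0.0836. Counts limit genes such as Derl3, whose log2 difference had an SE of 0.57 at under 1 CPM.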

Other observations

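Lists in this section were chosen after values were seen. Interferon-induced genes were mostly positive in the comparison of both drugs with halofuginone in PERK -/- cells: 25 of 26 tested were above 0, with a median log2 difference of 0.69, and 4 were called higher (Oasl1, Rsad2, Stat2 and Ifih1). Oasl1, an oligoadenylate synthetase-like gene, went from 4.26, 3.57 and 2.66 CPM to 18.6, 14.5 and 13.96 CPM, a log2 difference of 2.16 (SE 0.36, adjusted p = 0.000101). Thapsigargin alone raised 13 of the 26, with a median of 1.30, and in WT cells on halofuginone 0 were called, with a median of 0.02. The difference between genotypes was above 0 for 25 of 26 and called for 0. Members of such a list move together and are not independent.

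Of 7 genes for ligands of the EGF receptor 3 were lower: Hbegf by -1.46, Areg by -1.74 and Ereg by -1.48 on the log2 scale. Hbegf was at 249 CPM on halofuginone and 90.4 CPM with thapsigargin, and Ereg at 27.2 and then 9.74 CPM. They stand beside the falls of Egr1, Dusp5 and Dusp6, and whether these are linked was not tested.

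Histone genes rose in part. Of 66 tested, 11 were higher and all 66 had a positive log2 difference, with a median of 0.84, against 0 called and a median of -0.14 in WT cells. With thapsigargin alone in PERK -/- cells 55 of 66 were positive and 3 called higher, with a median of 0.36. The difference between these 2 responses was called for 0. Members of this list are not independent either. Hist1h2bc was at 42.6, 35.2 and 40.2 CPM and then 95.8, 74.4 and 75.4 CPM, a log2 difference of 1.06 (SE 0.22, adjusted p = 0.0019). In WT cells it went from 160.2, 159 and 306 to 139, 112 and 177 CPM, and the difference between genotypes was 1.61 (SE 0.31, adjusted p = 0.00498). Beside this, 1 of 21 DNA replication genes and 0 of 20 mitosis genes were called.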
